A study of Mus musculus with 39 samples.

Results

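Vesicle traffic between the endoplasmic reticulum (ER) and the Golgi apparatus was followed at the RNA level across sucrose gradients of mouse liver. Genes were taken by symbol: the subunits of the COPI and COPII coats, the Arf and Sar1 GTPases and Arfgap1, the TRAPP subunits and Uso1, the Sec22 proteins, and the cargo receptors of the Tmed, Lman, Kdelr and Surf4 type with the receptor partner Mcfd2. This gave 63 genes of the 13230 that were measured in both gradients, and no gene met the rule in one gradient only. By the known place of the protein, or by symbol for Tmed8, they comprised 20 cytosolic coat subunits, 9 cytosolic regulators, 15 cytosolic tethers, 15 membrane cargo receptors, 3 Sec22 membrane proteins and 1 lumenal partner, Mcfd2. The question was whether RNAs for cytosolic coats sedimented differently from RNAs for the membrane receptors that those coats carry.

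All libraries came from livers of wild-type FVB female mice with no treatment, and animal age was not given in the sources used here. The tissue was broken with beads in buffered sucrose without detergent, nuclei were spun out, and the supernatant was separated by velocity on a sucrose gradient that runs from light at the top to dense at the bottom. RNA depleted of ribosomal RNA gave 17 libraries from gradient 1 (fractions 4 to 19 and 21) and 22 libraries from gradient 2 (fractions 3 to 24), 39 in all, with 1 library per fraction. The 2 gradients are the only replicates, so SDs, SEs and tests rest on them, while ranges over the libraries of a zone also span its fractions. Values are TPM, a measure already corrected for transcript length that states how much of the RNA in a library belongs to a gene. The number of reads behind a value is unknown, and a rise of abundant RNAs lowers the share of all others.

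Cargo leaves the ER in vesicles coated by COPII, a cytosolic shell that the GTPase Sar1 calls to the membrane. The inner layer of Sec23 and Sec24 binds cargo, the outer cage of Sec13 and Sec31 shapes the bud, and Sec16 organizes the exit site. COPI, a coat recruited by Arf GTPases, carries escaped ER proteins and cycling receptors back. Cargo receptors span the membrane and link lumenal cargo to these coats: the p24 proteins (Tmed family), the lectins Lman1 and Lman2, the KDEL receptors, which retrieve resident ER proteins, and Surf4. TRAPP complexes and the long coiled-coil protein p115 (Uso1) tether vesicles, and SNAREs such as Sec22b drive fusion. Hepatocytes secrete most plasma proteins and depend on this route. Coats are made on ribosomes in the cytosol, whereas proteins with a signal peptide or a membrane span are generally made on ribosomes bound to the ER.

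The difference in the encoded proteins can be read from the coding sequence. For each of the 63 genes the principal transcript of GENCODE M21 (GRCm38, the same assembly as mm10) was translated, and the stretch of 19 codons with the highest mean hydropathy on the Kyte-Doolittle scale was found. Shown are the 57 bases of that stretch for the most abundant RNA of the p24 family, of the other receptors, of the COPI coat and of the COPII coat, and for Tmed8, the one receptor gene in which no stretch reached the threshold of 1.6 that is usual for a membrane span. Each is printed 5′ to 3′ on the coding strand, with codons for the hydrophobic residues Ala, Cys, Phe, Ile, Leu, Met and Val in capitals.
Tmed2: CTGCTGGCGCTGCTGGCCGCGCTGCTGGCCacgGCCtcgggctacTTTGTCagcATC
Surf4: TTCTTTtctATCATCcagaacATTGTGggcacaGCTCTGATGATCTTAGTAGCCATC
Cope: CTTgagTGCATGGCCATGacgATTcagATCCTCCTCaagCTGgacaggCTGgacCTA
Sec13: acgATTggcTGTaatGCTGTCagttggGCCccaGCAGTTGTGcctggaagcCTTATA
Tmed8: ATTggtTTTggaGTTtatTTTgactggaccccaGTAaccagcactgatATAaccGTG

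The Tmed2 stretch lies in coding exon 1 of 4 at chr5:124540880-124540936 on the plus strand, covers codons 7 to 25 of 201, and has a mean hydropathy of 2.07 with 14 hydrophobic codons. The Surf4 stretch covers codons 179 to 197 of 269, has a hydropathy of 2.14 with 14 hydrophobic codons, and is split between exon 5 (chr2:26924345-26924353) and exon 6 (chr2:26922124-26922171) on the minus strand. Neither holds a codon for a charged residue. The Cope stretch, codons 146 to 164 of 308, joins exon 4 (chr8:70306644-70306651) and exon 5 (chr8:70307950-70307998) on the plus strand and reaches only 0.884. It has 12 hydrophobic codons and 5 codons for charged residues. The Sec13 stretch, codons 150 to 168 of 322, joins exon 5 (chr6:113734546-113734548) and exon 6 (chr6:113730854-113730907) on the minus strand and reaches 1.19. It has 10 hydrophobic codons and, like those of Tmed2 and Surf4, no codon for a charged residue. The Tmed8 stretch, codons 216 to 234 of 326, lies in exon 5 of 6 at chr12:87174109-87174165 on the minus strand, reaches 0.632 and has 7 hydrophobic codons. A stretch of 1.6 or more was present in 14 of 15 receptors, in all 3 Sec22 genes and in Mcfd2, whose protein has a cleaved signal peptide, but in only 3 of 20 coat genes (Copb1, Sec24a and Sec24d), 1 of 15 tethers (Uso1) and 0 of 9 regulators. Since those coat subunits and Uso1 are soluble proteins, the threshold marks a hydrophobic stretch and not a membrane span. Among the p24 genes the highest stretch lies near the start in Tmed2, Tmed4 (codons 9 to 27), Tmed6 (1 to 19) and Tmed10 (14 to 32). In the others it begins at codon 191 or later. Whether the early stretches are signal peptides or membrane spans was not tested.

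Receptor and coat RNAs sedimented in opposite parts of the gradient. RNAs for the cargo receptors were most abundant near the top, while most coat RNAs were scarce there and more abundant toward the bottom. In gradient 1, the summed TPM of the 15 receptors averaged 1245 over the light fractions 4 to 7, 269 over the middle fractions 10 to 13 and 220 over the dense fractions 16 to 19. In gradient 2 the same averages were 1280, 393 and 448. The receptor total was thus several times higher in the light zone of both gradients, and the dense zone of gradient 2 held more than that of gradient 1. The summed TPM of the 20 coat genes averaged 1178, 2497 and 3326 over the light, middle and dense zones of gradient 1, and 1049, 2069 and 2464 in gradient 2. From light to middle, coat RNA was thus higher and receptor RNA lower in both gradients, while from middle to dense both totals were higher in gradient 2. The ratio of the coat total to the receptor total went from 0.946 in the light zone to 9.30 in the middle zone and 15.1 in the dense zone of gradient 1. In gradient 2 this ratio was 0.819, 5.26 and 5.50. All zones of a gradient were cut from the same homogenate. Since that homogenate is bulk tissue, fewer cells of a type and less RNA per cell cannot be told apart in the level of any RNA in the homogenate as a whole.

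**Figure D1:**
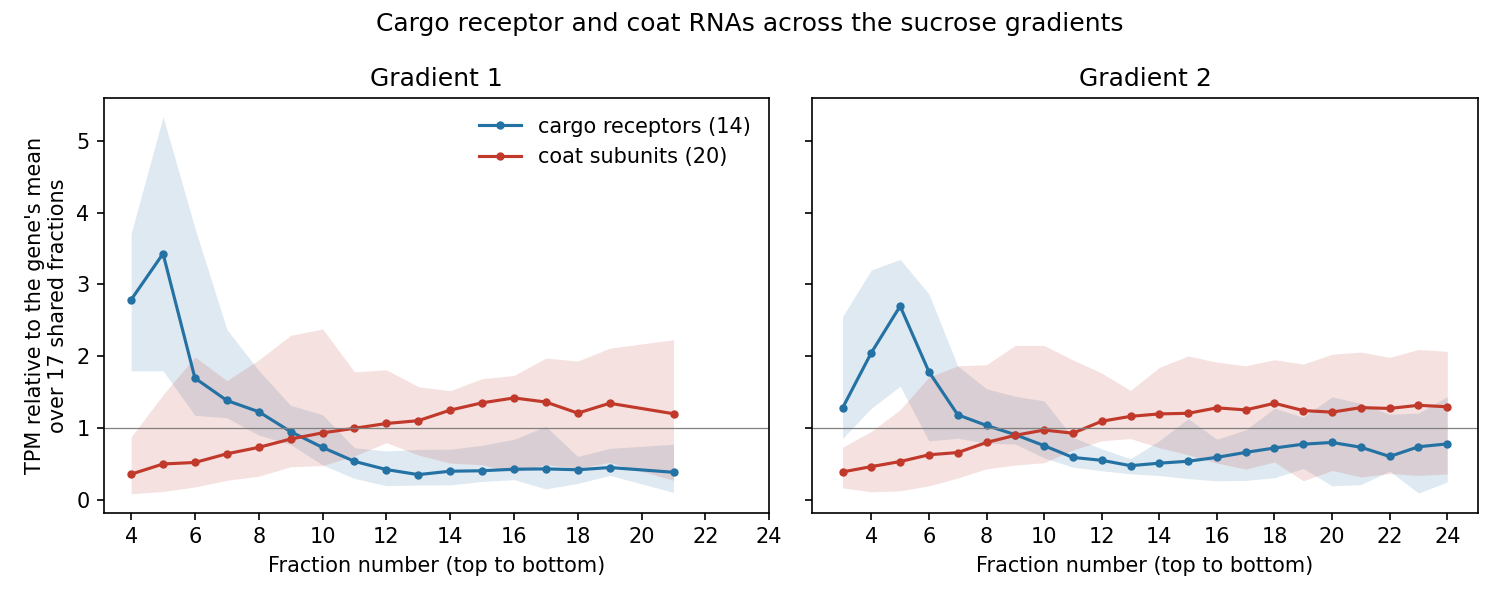
Median profile of 14 cargo receptor RNAs (blue) and 20 coat RNAs (red) by fraction number in each gradient relative to the mean of the gene over the 17 shared fractions, where the bands run from the lowest to the highest gene. The receptor median peaked at fraction 5 (3.43 in gradient 1 and 2.70 in gradient 2) and lay above the coat median through fraction 9, below which the order was reversed.

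The crossing of the class profiles fell at the same place in both gradients. On profiles scaled to a mean of 1 over the 17 shared fractions, the receptor median was above the coat median in fractions 4 to 9 of gradient 1 (6 of 17 fractions) and 3 to 9 of gradient 2 (7 of 22). All 14 tested receptors had their highest TPM in fractions 4 to 6 of gradient 1 and in fraction 4 or 5 of gradient 2. Of the 20 coat genes, 14 peaked in fractions 15 to 21 of gradient 1. Over the 22 fractions of gradient 2, 13 coats peaked in fractions 15 to 24, with 5 of them in fractions 15 to 21 and 8 below, in fractions 22 to 24. The center of sedimentation is the mean fraction number weighted by TPM, here over the 17 shared fractions. It had a median of 8.54 for receptors and 13.6 for coats in gradient 1, and of 9.86 and 13.5 in gradient 2. In gradient 1 the classes did not overlap, since the deepest receptor, Tmed9 (10.1), was still lighter than the lightest coat, Copz2 (10.3). In gradient 2 they did, with Tmed9 at 11.7 and Copz2 at 10.6, and 3 receptors and 3 coats lay in the range of overlap. The receptor profiles also resembled each other more than the coat profiles did, as a description across genes that share libraries: the median Pearson's R between 91 pairs of receptors was 0.906 in gradient 1 and 0.885 in gradient 2, against 0.506 and 0.439 for 190 pairs of coats. Between a receptor and a coat the median was -0.70 and -0.62 over 280 pairs.

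To test single genes, TPM was averaged as log2(TPM + 1) over the 4 fractions of a zone within each gradient, and limma was fitted to the 6 zone values over the 11754 genes whose TPM averaged 1 or more. Differences are on this log2 scale, which understates changes of low genes, and p-values were adjusted over all genes tested. Of the 63 members, 62 were tested. Tmed6, a p24 family member, had a mean TPM under 1 and ran from 0 to 1.44 in the light, 0 to 1.65 in the middle and 0 to 2.13 in the dense libraries, so no zone stood out.

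From the light to the dense zone, 41 of the 62 tested members passed an adjusted p of 0.05, 21 higher and 20 lower in the dense zone. Across all genes tested, 61.9% passed, 22.3% higher and 39.6% lower. The share called among members was thus near that of all genes, and the calls divided by class. None of the 14 tested receptors was higher in the dense zone and 11 were lower, with a median difference of -1.85 (-2.36 in gradient 1 and -1.44 in gradient 2). All 14 differences were negative in both gradients. Of the 20 coat genes, 13 were higher and 3 lower, with a median of 1.09 (1.24 and 1.00). Over all genes tested the median was -0.43. The median of the receptors minus that of the coats was -3.02 ± 0.82 (SD, n = 2 gradients; -3.60 and -2.44). Without the light zone of gradient 2 the members called went from 41 to 26 and the coats called higher from 13 to 8, and the 3 coats called lower became 1 without any one zone value other than the dense zone of gradient 1, where 2 were called.

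**Figure D2:**
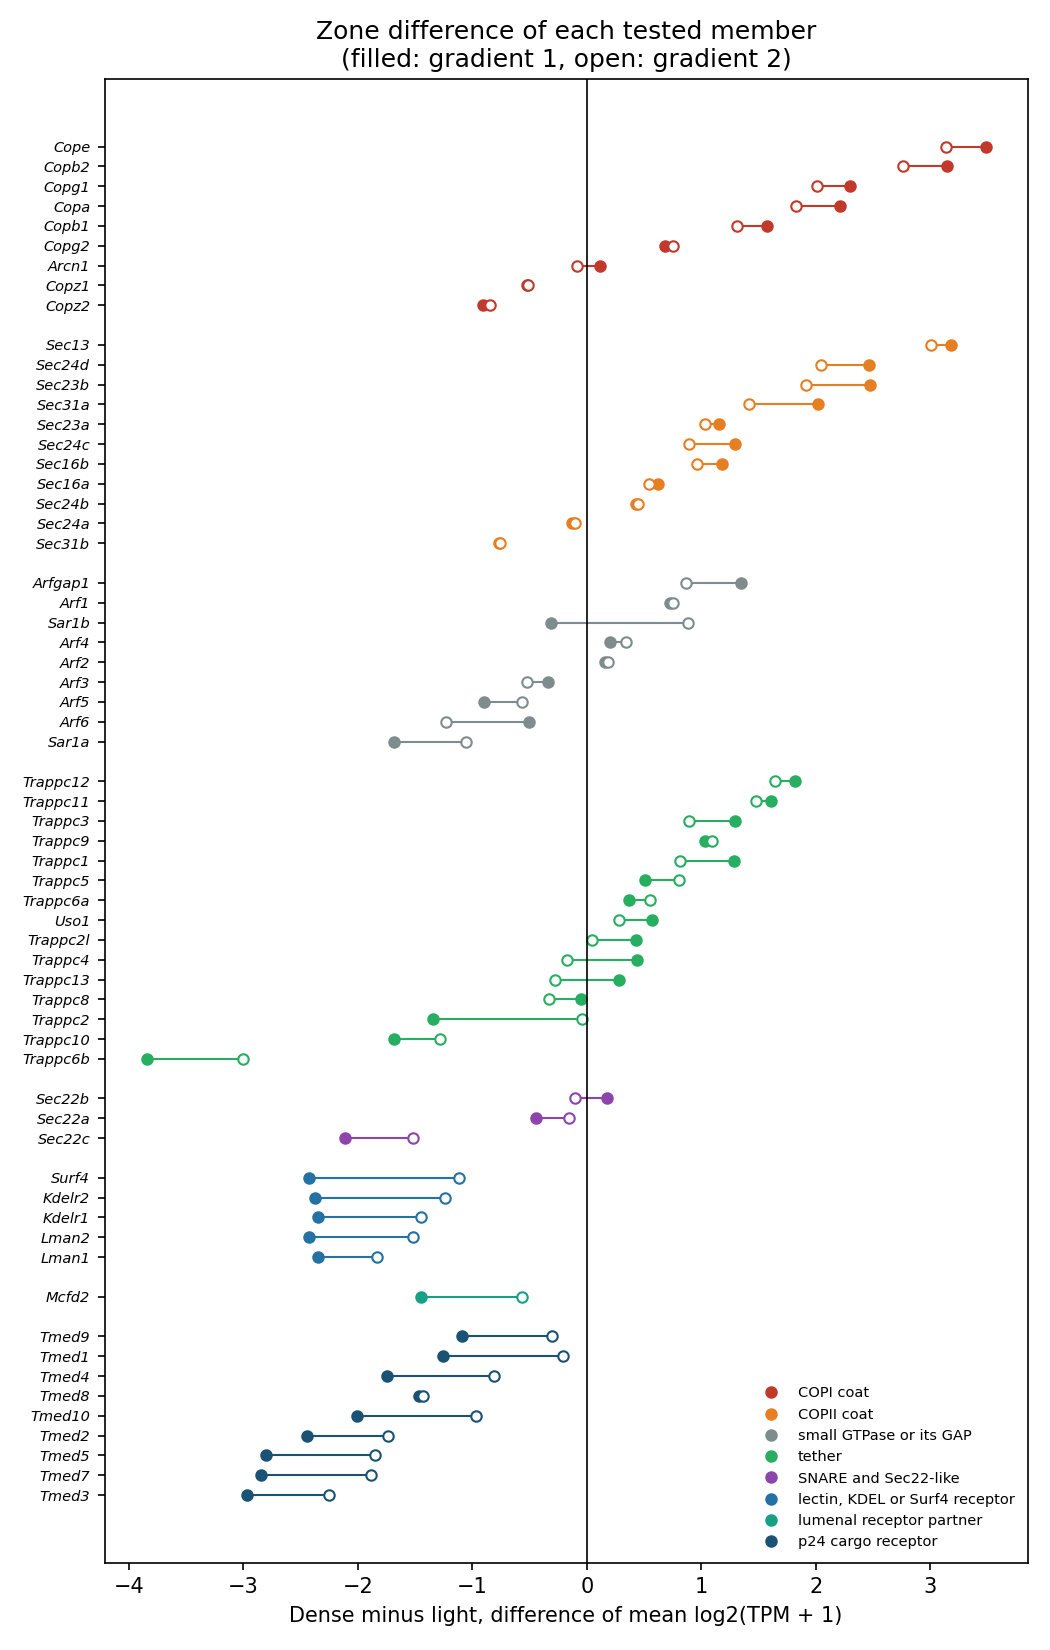
Difference between the dense and the light zone in mean log2(TPM + 1) for each of the 62 tested genes, grouped by role, with gradient 1 as filled and gradient 2 as open points. Every p24, lectin, KDEL and Surf4 receptor lies left of 0 in both gradients, whereas the coats spread from -0.87 (Copz2) to 3.31 (Cope), and Trappc6b at -3.42 lies lowest of all.

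Among the p24 receptors, which cycle between ER and Golgi with both coats, Tmed2 (chr5:124540695-124550506) was the most abundant. Its TPM in fractions 4, 5, 6 and 7 was 369, 405, 193 and 187 in gradient 1 and 350, 414, 253 and 220 in gradient 2. In fractions 16 to 19 it was 56.4, 47.8, 43.1 and 50.1 in gradient 1 and 90.5, 91.1, 84.4 and 91.3 in gradient 2. Every light library was above every dense one, and the dense libraries of gradient 2 were above those of gradient 1. The difference was -2.09 ± 0.39 (SE), a fold of 4.26, with an adjusted p of 0.0054 in limma. Tmed3, a p24 protein of the gamma subfamily, had the largest difference of the family (-2.61 ± 0.27, adjusted p = 0.0007), from a median of 30.9 TPM over the 8 light libraries (20.3 to 43.5) to 4.56 over the 8 dense ones (2.65 to 5.68). Its light and dense libraries did not overlap. Tmed7 (-2.36), Tmed5 (-2.33), Tmed8 (-1.45) and Tmed4 (-1.28) were also lower in the dense zone, but Tmed4 missed the threshold without either light zone value or the dense zone of gradient 1 (adjusted p up to 0.202).

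The exceptions in the family were Tmed10, Tmed1 and Tmed9. Tmed10, the p24 delta protein, differed by -1.49 ± 0.54 with an adjusted p of 0.0525, and Tmed1 by -0.73 ± 0.31 (adjusted p = 0.0832). Tmed9, a p24 alpha protein, had the smallest difference, -0.70 ± 0.45 (adjusted p = 0.225). Its light libraries ran from 16.5 to 37.2 TPM with a median of 25.3, and its dense libraries from 7.85 to 26.9 with a median of 15.6, so that the zones overlapped. With the gradient as a block, which uses the pairing of zones from the same homogenate, Tmed10 (adjusted p = 0.0032) and Tmed9 (0.0276) passed and Tmed1 did not (0.0560). Tmed8, counted as a receptor by its symbol, lacks the hydrophobic stretch. It was the scarcest tested receptor, with 2.01 to 4.85 TPM in the light libraries (median 3.42) and 0.349 to 0.684 in the dense ones (median 0.536), and did not overlap between them.

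The other receptors were lower in the dense zone without exception, with differences between -2.09 and -1.77. Surf4 (chr2:26920040-26933928), a multispanning receptor for secreted proteins, had 172, 230, 118 and 84.4 TPM in fractions 4 to 7 of gradient 1 and 153, 214, 124 and 92.7 in gradient 2. In fractions 16 to 19 it had 26.0, 26.6, 22.8 and 26.2 TPM in gradient 1 and 49.1, 60.3, 74.7 and 75.2 in gradient 2. All light libraries were above all dense ones, but the margin was narrow in gradient 2, where fraction 7 held 92.7 and fraction 19 held 75.2. The difference was -1.77 ± 0.44 (adjusted p = 0.0151), and it missed the threshold when either light zone value was left out (highest adjusted p 0.0858). Lman1 (ERGIC-53), the lectin that carries blood clotting factors, had the largest difference of these 5 receptors, -2.09 ± 0.31 (adjusted p = 0.0024), from a light median of 128 TPM (72.0 to 215) to a dense median of 29.6 (15.7 to 45.2). Lman2 (VIP36), Kdelr1 and Kdelr2 differed by -1.98, -1.90 and -1.81, and Kdelr2 missed the threshold without either light zone value (adjusted p up to 0.0699). Mcfd2, the soluble lumenal partner of Lman1, followed its receptor at a smaller size: -1.01 ± 0.32 (adjusted p = 0.037), from a light median of 195 TPM (125 to 275) to a dense median of 90.2 (63.5 to 135), with overlapping zones. Its call was lost without either light zone value or without the dense zone of gradient 1 (highest adjusted p 0.148).

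**Figure D3:**
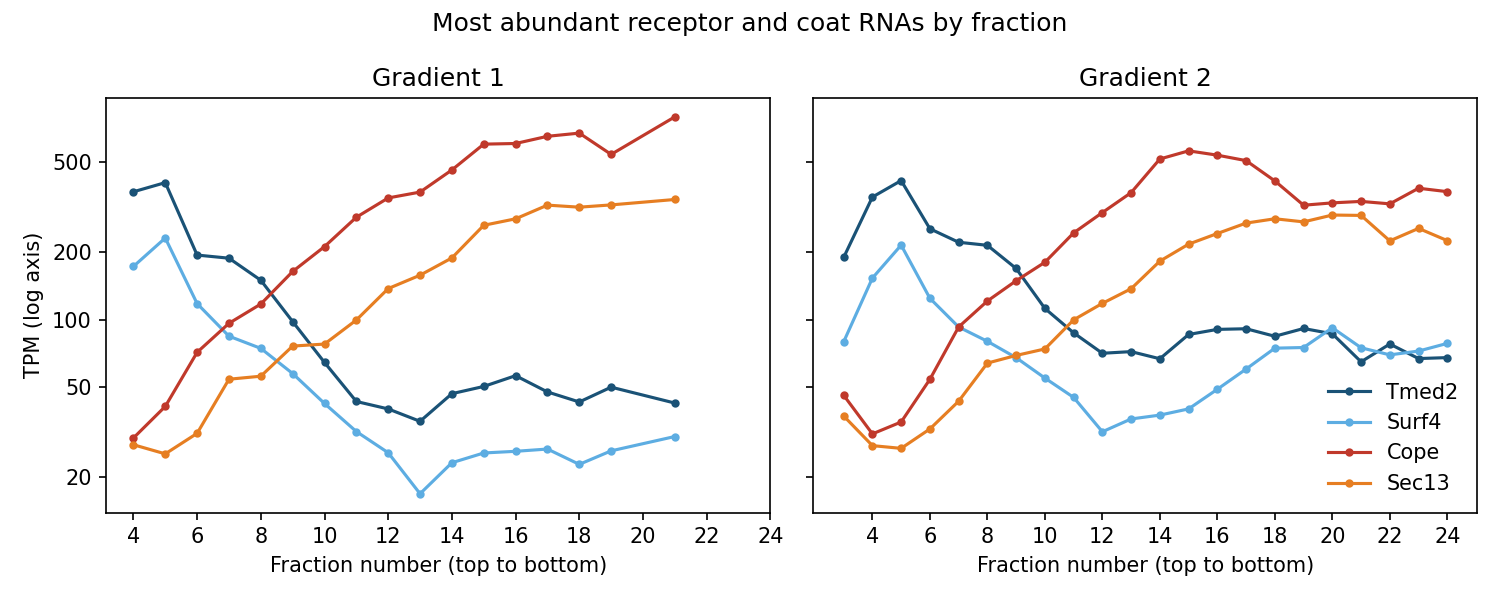
TPM on a log axis by fraction in each gradient for the most abundant p24 RNA (Tmed2), other receptor RNA (Surf4), COPI RNA (Cope) and COPII RNA (Sec13). The receptor curves fall from fraction 5, at 405 and 414 TPM for Tmed2, while Cope climbs from 29.8 and 31.1 TPM in fraction 4 through fraction 15, and in gradient 2 Surf4 comes back up below fraction 12.

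The COPI coat has an outer and an inner group of subunits, and its RNAs did not divide cleanly by group. The cage of COPI is formed by the alpha, beta prime and epsilon subunits (Copa, Copb2, Cope), and the RNAs of all 3 were higher in the dense zone. Cope (chr8:70302518-70312993), the most abundant coat RNA, had 29.8, 41.2, 71.6 and 96.3 TPM in fractions 4 to 7 of gradient 1 and 31.1, 35.1, 54.3 and 92.7 in gradient 2. In fractions 16 to 19 it had 605, 651, 672 and 541 TPM in gradient 1 and 537, 508, 413 and 322 in gradient 2. The lowest dense library was more than 3 times the highest light library. The difference was 3.31 ± 0.21, a fold of 9.94 (adjusted p = 0.0003). Copb2 differed by 2.96 ± 0.21, from 32.3 to 68.6 TPM in the light libraries to 261 to 470 in the dense ones, and Copa by 2.02 ± 0.24, from 54.3 to 87.4 to 197 to 318.

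In the inner group, which resembles a clathrin adaptor, the large subunits Copg1 (2.15 ± 0.17), Copb1 (1.44 ± 0.21) and Copg2 (0.72 ± 0.19) were higher in the dense zone, Copg2 in only 3 of the 6 fits without a zone value (adjusted p up to 0.112). The medium subunit, delta-COP (Arcn1), showed no such difference: it ran from 142 to 243 TPM in the light, 195 to 237 in the middle and 144 to 214 in the dense libraries, and differed by 0.014 ± 0.15 between dense and light (adjusted p = 0.943). Both small subunits were lower in the dense zone. Copz1 differed by -0.52 ± 0.14 (adjusted p = 0.0227), a call that was lost in each of the 6 fits that left out a zone value (adjusted p from 0.0522 to 0.0909), and Copz2 (chr11:96849870-96861203) by -0.87 ± 0.16 (adjusted p = 0.0054), which kept its call in all 6. These zeta-COP RNAs had their peak in neither end zone: Copz1 was highest in fraction 12 of both gradients, and Copz2 in fraction 10 of gradient 1 and 9 of gradient 2. Copz2 went from a light median of 46.5 TPM (33.7 to 99.4) to a middle median of 92.3 (38.6 to 143) and a dense median of 28.2 (16.7 to 36.4). The RNAs of the 9 COPI genes, in which Copg1 and Copg2 as well as Copz1 and Copz2 are alternative paralogs, had centers from 10.3 (Copz2) to 15.4 (Cope) in gradient 1 and from 10.6 (Copz2) to 14.9 (Copb2) in gradient 2.

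**Figure D4:**
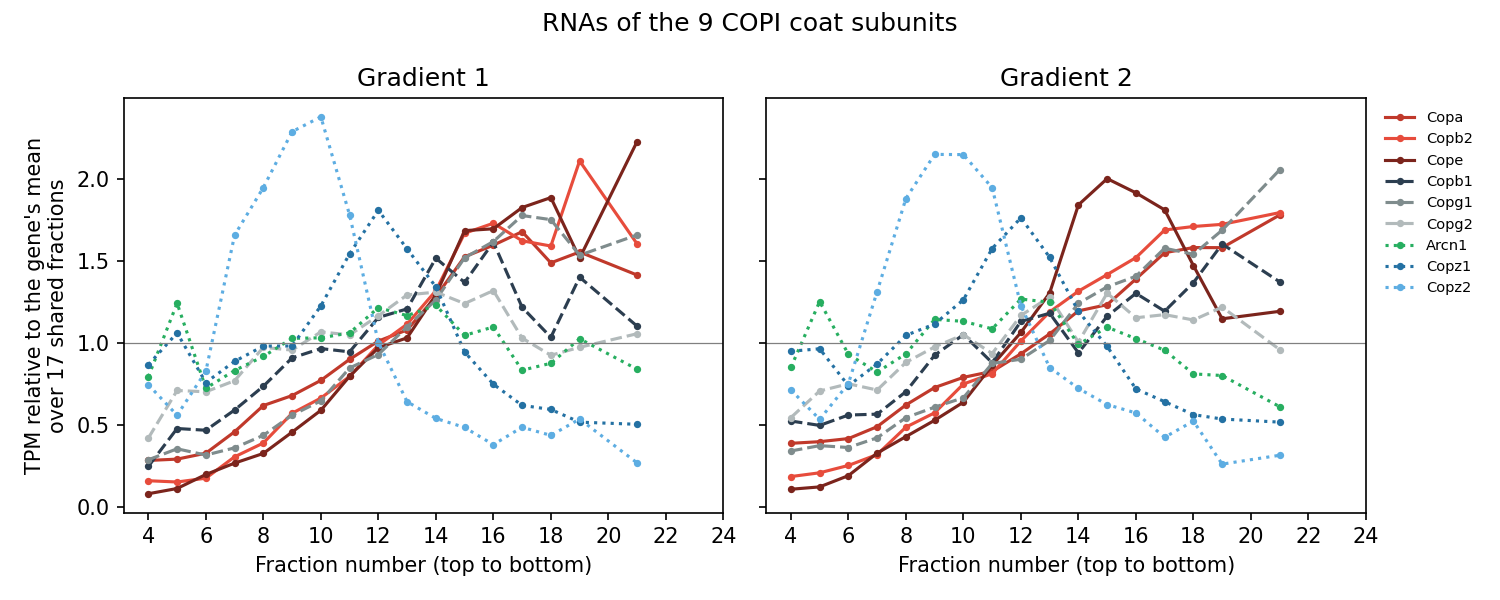
TPM relative to the gene's mean over the 17 shared fractions for the 9 COPI RNAs in each gradient, with solid lines for the cage subunits, dashed lines for beta and gamma subunits and dotted lines for delta and zeta subunits. Among these 17 fractions Copa, Copb2 and Copg1 are highest in fractions 17 to 21, Cope climbs through fraction 15 and then declines in gradient 2 only, Arcn1 is highest at fraction 5 in gradient 1 and at 12 in gradient 2, and Copz1 and Copz2 peak at fractions 12 and 9 to 10.

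Among the 11 COPII RNAs, the dense zone held more of 7 and less of 1, and the median was 1.09. Sec13 (chr6:113728062-113740743), the beta propeller of the outer cage, had 27.8, 25.4, 31.3 and 54.4 TPM in fractions 4 to 7 of gradient 1 and 27.6, 26.8, 32.7 and 43.4 in gradient 2. In fractions 16 to 19 it had 280, 322, 315 and 323 TPM in gradient 1 and 241.1, 268, 280 and 271 in gradient 2. The zones lay far apart, at 3.10 ± 0.16 and a fold of 8.55 (adjusted p = 0.0003), and the profiles of the 2 gradients were nearly the same (R = 0.997 over 17 fractions). Its cage partner Sec31a differed by 1.72 ± 0.27 (adjusted p = 0.003).

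COPII paralogs differed among themselves. The minor cage RNA Sec31b went the other way from Sec31a, at -0.76 ± 0.25 (adjusted p = 0.0386), but at a low level, with a median of 5.58 TPM in the light libraries (1.70 to 8.13) and of 2.06 in the dense ones (at most 3.67), and it kept its call in 1 of 6 fits that left out a zone value (adjusted p up to 0.17) and lost it with quantile normalization (-0.12, adjusted p = 0.627). Among the cargo-binding Sec24 proteins, which fall into an A/B and a C/D pair by sequence, Sec24d (2.26 ± 0.46) and Sec24c (1.09 ± 0.35) were higher in the dense zone. Sec24b (0.44 ± 0.29, adjusted p = 0.231; 0.0121 with the block, higher in the dense zone) and Sec24a (-0.12 ± 0.18, adjusted p = 0.592; 0.28 with the block) did not pass. Sec24d ran from 16.4 to 48.0 TPM in the light libraries and from 98.1 to 213 in the dense ones, whereas Sec24a ran from 100 to 162 and from 93.3 to 134. The pairing by subfamily was noticed after the values were seen and the pairs were not compared by a test. Both Sec23 GTPase activators were higher, Sec23b (2.20 ± 0.22) by more than Sec23a (1.09 ± 0.28). Of the scaffolds, Sec16b was higher (1.07 ± 0.30, adjusted p = 0.0219) and Sec16a was at 0.58 ± 0.28 (adjusted p = 0.118; 0.0026 with the block). The calls of Sec24c and Sec16b were lost without either light zone value or the dense zone of gradient 1 (adjusted p up to 0.19 and 0.13), that of Sec23a without the light zone of gradient 2 or the dense zone of gradient 1 (up to 0.106), and that of Sec24d without the light zone of gradient 2 (0.0594).

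The GTPases did not follow either class: of 9 regulators, 2 were higher toward the bottom and 2 were lower (3 and 4 with the gradient as a block), and the median was 0.17. Arf1 (chr11:59211412-59228270), which recruits COPI, was the most abundant. It ran from 159 to 250 TPM in the light libraries (median 208) and from 293 to 413 in the dense ones (median 342), without overlap, and differed by 0.74 ± 0.15 (adjusted p = 0.0065; 0.31 and 0.113 with quantile normalization). Arfgap1, which makes Arf1 hydrolyze GTP, differed by 1.11 ± 0.37 (adjusted p = 0.0432), from a light median of 16.4 TPM (7.79 to 25.9) to a dense median of 33.6 (22.5 to 46.9), and missed the threshold without either light zone value or the dense zone of gradient 1 (adjusted p up to 0.206).

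Sar1a, the GTPase that starts COPII assembly, sedimented with the receptors rather than with the coat it recruits. Its TPM ran from 57.3 to 101 in the light libraries (median 70.7) and from 19.0 to 37.0 in the dense ones (median 29.2), which did not overlap. The difference was -1.37 ± 0.29 (adjusted p = 0.0085), and missed the threshold without either light zone value (highest adjusted p 0.0611). With the block, Arf4 (0.28, adjusted p = 0.047) was higher and Arf3 (-0.43, 0.0108) and Arf6 (-0.87, 0.0079) were lower, where without it they did not pass. Arf6, which acts at the plasma membrane, ran from 48.5 to 86.6 TPM in the light libraries and from 19.3 to 46.1 in the dense ones, without overlap. Arf5 was lower as well (-0.73 ± 0.18, adjusted p = 0.0145), though not without either light zone value or the dense zone of gradient 1 (adjusted p up to 0.0679). Sar1b, required for chylomicron export in the gut, was the least repeatable member: its R between the gradients was -0.27 over 17 fractions, and its difference was -0.31 in gradient 1 and 0.88 in gradient 2.

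Tethers spread over the widest range, from Trappc6b to Trappc12: the dense zone held more of 6 and less of 2 of the 15, and the median was 0.42. Trappc12 (1.73 ± 0.23) and Trappc11 (1.55 ± 0.24), subunits of the TRAPPIII complex, and Trappc9 (1.06 ± 0.17) of TRAPPII had the largest positive differences beside the core subunits Trappc3 (1.09) and Trappc1 (1.05). Trappc8 and Trappc13, also of TRAPPIII, did not pass, with light medians of 32.5 and 31.5 TPM and dense medians of 29.3 and 31.8. Trappc12 ran from 9.47 to 21.4 TPM in the light libraries (median 15.6) and from 44.0 to 65.2 in the dense ones (median 54.8). Uso1, the most abundant tether RNA, differed by 0.42 ± 0.16 (adjusted p = 0.0564; 0.0176 with the block), with 47.3 to 69.2 TPM in the light, 94.6 to 109 in the middle and 71.9 to 92.4 in the dense libraries.

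Trappc6b (chr12:59043092-59061472), a core TRAPP subunit with no hydrophobic stretch (0.984), had the largest negative difference of all members. It had 80.8, 55.8, 69.3 and 82.5 TPM in fractions 4 to 7 of gradient 1 and 106, 72.3, 82.9 and 82.8 in gradient 2. In fractions 16 to 19 it had 8.02, 5.69, 1.27 and 3.67 TPM in gradient 1 and 11.4, 8.85, 10.4 and 8.63 in gradient 2. No dense library reached the lowest light one, and the difference was -3.42 ± 0.38, a fold of 10.7 (adjusted p = 0.0009). Its paralog Trappc6a was at 0.46 ± 0.17 (adjusted p = 0.0538; 0.0101 with the block) and peaked in fraction 11 of both gradients. Trappc10 of TRAPPII was also lower in the dense zone (-1.49 ± 0.26, adjusted p = 0.0043).

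Of the 3 Sec22 genes, 1 was lower in the dense zone. Sec22b, the SNARE of ER-Golgi vesicles, which is anchored by its C-terminal end, ran from 46.1 to 64.8 TPM in the light, 67.8 to 110 in the middle and 42.6 to 81.8 in the dense libraries, and differed by 0.036 ± 0.19 between dense and light (adjusted p = 0.882). Sec22c, a multispanning relative, differed by -1.82 ± 0.35 (adjusted p = 0.0058), from a light median of 8.62 TPM (2.98 to 17.0) to a dense median of 1.68 (1.15 to 2.61). All 3 encode membrane proteins, and their RNAs did not share one pattern.

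Between the light and the middle zone the classes had already separated. Of the 62 members, 25 were higher and 16 lower in the middle zone, where 47.5% of all genes passed, 23.5% higher and 24.1% lower. Of the receptors, 13 of 14 were lower, with a median of -1.75, and of the coats 14 of 20 were higher and 0 lower, with a median of 1.03 against 0.046 over all genes. The receptor median minus the coat median was -2.80 ± 0.47 (SD, n = 2 gradients). Tmed2 differed by -2.20 ± 0.39 (adjusted p = 0.0068) and Cope by 2.42 ± 0.21 (adjusted p = 0.0012). The highest middle-zone differences after Cope and Copb2 were those of Trappc6a (2.01 ± 0.17) and Trappc2l (1.99 ± 0.21), core subunits of TRAPP. Trappc6a ran from 9.54 to 47.3 TPM in the light libraries (median 16.0), 51.3 to 91.0 in the middle (median 81.8) and 20.8 to 32.5 in the dense ones (median 25.4). Sec22b (0.64 ± 0.19, adjusted p = 0.0374) and Uso1 (0.77 ± 0.16, adjusted p = 0.0108) were higher in the middle zone too. In the 6 fits that left out a zone value, Tmed2 was called in 4 (adjusted p up to 0.0571), Sec22b in 2 (0.215) and Uso1 in 3 (0.0763). The counts depended on single zone values. The coats called higher fell from 14 to 6 without the light zone of either gradient and to 5 without the middle zone of gradient 1, and the receptors called lower from 13 to 3, 4 and 7 without the light zone of gradient 1, the light zone of gradient 2 and the middle zone of gradient 1.

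Between the middle and the dense zone the receptors showed no common difference. Of the 62 members, the dense zone held more of 5 and less of 8 (14 and 17 with the gradient as a block, 12 and 6 with quantile normalization), where 27.3% of all genes passed, 4.79% higher and 22.5% lower. The 5 higher were all coats: Sec13 (1.38 ± 0.16), Copb2 (0.92 ± 0.21), Copg1 (0.89 ± 0.17), Cope (0.89 ± 0.21) and Sec23b (0.83 ± 0.22). The 8 lower were Copz1 (2.47-fold lower), Arf5 (2.47-fold lower) and, on the log2 scale, Copz2 (-1.59), Trappc2l (-1.75), Trappc6b (-1.67), Trappc6a (-1.55), Trappc2 (-1.47) and Trappc10 (-1.35). No receptor passed in limma (2 with the block), although 20 of the 62 members had an unadjusted p under 0.05. The receptor median was 0.026, and the sign depended on the gradient, with 5 of 14 positive in gradient 1 and 10 of 14 in gradient 2. The receptor median minus the coat median was -0.33 ± 0.21 (SD, n = 2 gradients). No member passed without the middle zone value of either gradient, and 8 passed without either light zone value.

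Coding length and hydropathy were set beside the position in the gradient. The 20 coat genes had a median of 929 codons (177 to 2357) and the 15 receptors a median of 227 (201 to 517), so length and class go together. Over the 62 tested members, the center of sedimentation had a Pearson's R with coding length of 0.44 in gradient 1 and 0.41 in gradient 2. Within the coats it was -0.034 and -0.024 over 20 genes, and within the receptors 0.045 and -0.20 over 14 genes. Short coat genes lay at both ends: Copz2 (205 codons) and Copz1 (177 codons) were among the 3 lightest of the 20 in both gradients, and Sec13 (322 codons) and Cope (308 codons) among the 3 deepest. With the highest hydropathy the R was -0.46 and -0.34 over 62 genes, but 0.15 and 0.18 over the 44 cytosolic members, -0.38 and -0.37 within the 20 coats, and -0.13 and 0.13 within the 14 receptors. These are descriptions across genes that share libraries, and genes are not replicates.

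**Figure D5:**
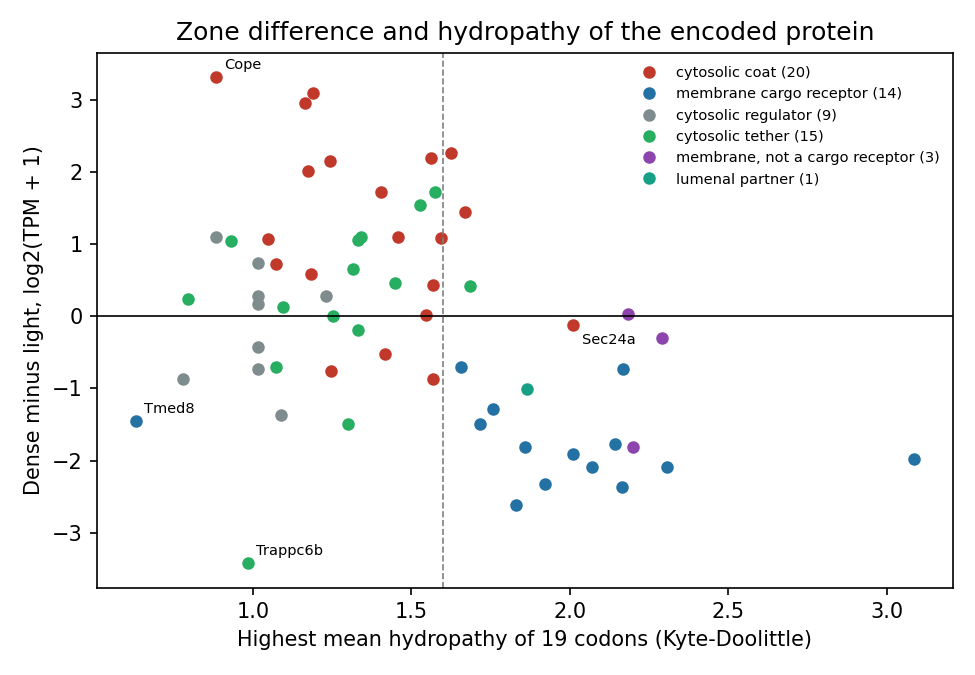
Dense minus light difference in log2(TPM + 1) against the highest mean hydropathy of 19 codons for the 62 tested genes, colored by class, with the dashed line at 1.6. The 13 tested receptors past the line all lie below 0, Tmed8 is the receptor far to its left, and Trappc6b is the lowest point although it has no hydrophobic stretch.

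Further genes of the pathway were listed by function, and the lists were chosen with earlier results of these data known. Their counts stand beside 22.3% higher and 39.6% lower, and a median of -0.43, over all genes. Of 12 other cytosolic regulators of the coats, the dense zone held more of 7 and less of 1, and the median was 1.03. Scfd1 (Sly1), which binds Golgi SNAREs, differed by 2.09 ± 0.18, Tfg, which organizes COPII at exit sites, by 1.61 ± 0.17, and the Arf exchange factor Gbf1 by 1.56 ± 0.25. The exception was Arfgef1, also an Arf exchange factor, at -1.77 ± 0.16. Of 16 genes for the COG complex and other Golgi tethers, 10 were higher and 1 lower (median 1.09), led by Cog7 (2.56 ± 0.20), with Cog3 (-0.71 ± 0.24) as the exception. Of 15 other membrane receptors and exit site proteins, 1 was higher and 8 lower (median -0.75). Cnih1, a cornichon receptor, differed by -2.29 ± 0.52, whereas Yif1b was higher (1.49 ± 0.26). Of 10 ER-Golgi SNAREs, 2 were higher and 7 lower, with a median of -1.13, and the lowest was Gosr2 (-2.35 ± 0.17). Of 26 genes of the translocon, signal peptidase and oligosaccharyltransferase, which act at the ER membrane, 1 was higher (Sec61b, 0.93 ± 0.19) and 14 lower, led by Magt1 (-3.16), with a median of -1.32. All 14 genes of the proteasome core, a cytosolic complex taken for comparison, were higher (median 2.70).

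Some markers of other liver cells also moved between zones. Of the 8 hepatocyte markers, whose sum went from 47952 and 35539 TPM in the light zones of gradients 1 and 2 to 21094 and 36217 in the dense zones, 3 were higher and 2 lower, and Alb averaged 11000 TPM over the zones, so the labelled tissue was seen. Of 5 Kupffer cell markers, 4 were lower in the dense zone and 0 higher, with a sum that averaged 142 and 139 TPM in the light zones of gradients 1 and 2 and 42.0 and 48.6 in the dense zones. The smallest difference of this list was -0.23. Clec4f, the defining marker, had the deepest center of the 5 in both gradients, 11.6 and 11.8, against list medians of 9.00 and 9.48. Of 4 tested endothelial markers 3 were lower (sums over all 5 measured, 64.0 and 38.8 TPM light, 29.1 and 19.4 dense). Of 4 stellate cell markers all 4 were lower (56.6 and 70.8 light, 13.8 and 22.7 dense). Their defining markers Clec4f, Stab2 and Lrat averaged 21.2, 3.12 and 5.42 TPM over the zones, so none was absent. The cholangiocyte markers summed to at most 7.95 TPM in any library and none of 2 tested passed, and of the 2 erythroid markers Hba-a1 was lower (-2.18 ± 0.24) and Alas2 at 0.76 was not called. The part of these cells in the receptor result was not tested.

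Reads shared between genes could enter some values, which was not tested. Pseudo-alignment can split reads between paralogs where their sequences are the same. How far this concerns the Arf genes, Sar1a and Sar1b, Copg1 and Copg2, and the Sec23 and Sec24 pairs was not measured. In the annotation, exons of 13 members overlap exons of a gene on the opposite strand, among them Surf4 with Surf2 (144 bases), Copg2 with Mest (912), Copa with Ncstn (195), Tmed1 with Dnm2 (200) and Tmed5 with Mtf2 (395), and whether the strand was used in counting was not given in the sources used here. Tmed7 shares 838 exon bases with Ticam2 and Sec31b 91 with another gene on its own strand.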

How the data were processed

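RNA from sucrose gradient fractions of wild-type mouse liver was measured in 39 libraries of 2 gradients. The authors quantified reads against an mm10 RefSeq index with Kallisto, and the deposited TPM values are listed by symbol with no replicates pooled, and the submitters' processing notes name bcl2fastq 2.16.0.10. The version of Kallisto and the way transcripts were summed to genes were not given in the sources used here. Genes kept by the authors had TPM over 1 in at least 1 fraction. Totals per library ran from 998099 to 999202, so TPM is a share, depth and counting error are unknown, and precision comes only from the spread between gradients.

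The members and lists were chosen with earlier results of these data known. Libraries were grouped into zones by fraction (light 4 to 7, middle 10 to 13, dense 16 to 19). Means of log2(TPM + 1) per zone and gradient (6 values) were fitted with limma 3.58.1 (R 4.3.3, eBayes with trend) over the 11754 genes whose TPM averaged 1 or more, with Benjamini-Hochberg adjustment and a threshold of 0.05. With replicates that are whole gradients, p-values measure the spread between 2 homogenates, and the labels do not say how many animals each held. All zones of 1 gradient share a homogenate, which makes the gradient a pairing: deviations of the gradients correlated across genes between light and middle (r = 0.665), light and dense (0.540) and middle and dense zones (0.798). The fit with the gradient as a block was an alternative, as were the pseudocount 0.1, no filter or a mean TPM of 10, quantile normalization, TPM rescaled without the 50 most abundant genes, other zone borders, and leaving out each zone value. The limma step was tested on simulated data with independent noise for each zone value, so that test did not cover the pairing of zones within a gradient.

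Every member could be named. Values by library were given for the most abundant member of each role and for those with the largest and the smallest dense minus light difference, and for other lists the members with the largest and the smallest change. Further values were given for exceptions, paralogs and complex partners, chosen after they were seen. Coding features came from translating GENCODE M21 coding sequences (63 of 63 genes matched by symbol), in place of the protein table that had been planned. Python 3.11.15, pandas 2.3.3, NumPy 2.4.6, SciPy 1.17.1 and matplotlib 3.10.9 were used. Tmed11 and Trappc3l, the protein measurements and isoforms were not analysed here.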

Additional observations from a re-analysis of the deposited data

How the results depend on the processing

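Over the 3 contrasts, none of the alternatives other than the block and leaving out a zone value moved the number of members called by more than 1.5 times. With the gradient as a replicate block, 50 members were called between dense and light in place of 41, 52 between middle and light in place of 41, and 31 between dense and middle in place of 13, and every call of the fit without the block was kept. Leaving out 1 zone value gave 26 to 39 calls between dense and light, 13 to 43 between middle and light and 0 to 13 between dense and middle. The counts moved by more than 1.5 times without the light zone of gradient 2 for dense against light (26), without the light zone of gradient 1 (13), the light zone of gradient 2 (16) or the middle zone of gradient 1 (15) for middle against light, and without either light zone (8 each) or either middle zone (0 each) for dense against middle. In those last fits no gene of 11754 passed the adjusted threshold, while 3374 and 3510 had an unadjusted p under 0.05. No called member changed direction when a zone value was left out. The zone with 1 value is then assumed to vary like the others.

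Quantile normalization changed the balance of calls. Over all genes, dense against light gave 3603 higher and 3512 lower in place of 2616 and 4658, and dense against middle gave 1213 and 1607 in place of 563 and 2645. It shifted the median of all genes from -0.43 to -0.053 between dense and light and from -0.28 to 0.035 between dense and middle. The members called went to 24 higher and 18 lower between dense and light, and to 12 and 6 between dense and middle. A mean TPM of at least 10 gave 22 and 17 members between dense and light, and over all genes 2228 and 2570 there and 2493 and 1472 between middle and light. Without the 50 most abundant genes, dense against middle gave 7 members each way. Between middle and light, Arf1 turned from 0.45 to -0.016 with quantile normalization. The receptor median minus the coat median kept its sign with the pseudocount, the filters, both other scalings, the other borders and each gradient alone, and was not fitted with the block or without single zone values. With fractions 4 to 6, 11 to 13 and 17 to 19 as zones it was -3.33 between middle and light and -0.057 between dense and middle. Weights of log2(TPM + 1) brought the centers of receptors (11.4) and coats (12.4) closer together. All 22 fractions of gradient 2 moved the mean center of the coats to 14.6 (15.5 in gradient 2). The mean center of the receptors then went from 9.20 to 9.86 (11.2 in gradient 2). Because depth is unknown, low RNAs such as Tmed6, Tmed8 and Sec31b carry a counting error that cannot be given.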

Other observations

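Below the dense zone only gradient 2 has libraries other than fraction 21. In its fractions 20 to 24 the summed TPM of the 15 receptors was 548, 474, 441, 460 and 501, above its lowest value of 315 in fraction 13, and the sum of the 20 coats was 2354, 2428, 2387, 2515 and 2394. In gradient 1 the receptor sum stayed between 190 and 231 TPM from fraction 13 to fraction 19 and was 199 in fraction 21. The ratio of coats to receptors therefore peaked at 7.39 in fraction 14 of gradient 2 and ended at 4.78 in fraction 24, whereas in gradient 1 it was 16.7 in fraction 21. The difference between the gradients was not tested, since each is 1 gradient.

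Single receptors of gradient 2 differed in level in these deep fractions. Surf4 had a lowest value of 31.8 TPM in fraction 12 and 69.7 to 92.0 in fractions 20 to 24, Tmed9 had 25.2 to 30.3 there and Tmed10 had 26.5 to 33.5. Tmed8 had 0.123 to 0.589 TPM in these fractions, and Tmed3 had 4.35 to 6.91, against a lowest value of 3.21 in fraction 15.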
